A study of Mus musculus with 2 samples.

Results

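The interferon-stimulated gene module was a fixed list of 37 genes, of which 35 were among the genes of the deposited count matrices. Mx1 and Mx2 were not in the feature lists and have no value here. The members found were 27 inducible type I genes, 3 members with a high basal level (Ifitm3, Bst2 and Ifi27l2a) and 5 GBP-type members (Gbp2, Gbp3, Gbp5, Gbp7 and Ifi47). They were read in single myeloid cells of the mouse ankle joint synovium, the lining tissue of the joint, by CITE-seq, which counts a cell's messenger RNA molecules and barcoded antibodies bound to its surface. All animals were bone marrow chimeras of genotype CD45.1 B6 --> CD45.2 B6, so cells that came from the transferred marrow carry CD45.1 and cells of the host carry CD45.2. The ankles had been shielded when the hosts were irradiated, so host cells remain in this tissue. The steady-state library came from chimeras with no treatment. The day 7 library came from chimeras that had received 200 µL of Clo-lip (clodronate liposomes, which kill the phagocytes that take them up) retro-orbitally 7 days earlier. Both libraries were sorted as live CD45+ CD11b+ cells that were negative for Ly6G, SiglecF, CD64, MHCII, Ly6C and CD177, per the labels. The labels give neither the number of animals in a library nor whether animals were pooled. With 1 library per group, no difference between the groups has a replicate check, and every interval below covers counting error alone.

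Interferons are secreted proteins that warn cells of infection. Type I interferons bind the receptor pair Ifnar1 and Ifnar2, and the kinases Jak1 and Tyk2 then activate a complex that holds Stat2 and Irf9 and binds interferon-stimulated response elements (ISREs) in promoters. Interferon gamma, the type II interferon, acts through Ifngr1 and Ifngr2 and on gamma-activated sites (GAS), and the guanylate-binding proteins (GBPs) respond strongly to it while also responding to type I interferon. Monocytes carry a standing low level of many of these genes and raise them quickly.

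The promoters of 27 of the 35 members were in the RefSeq promoter table (build GRCm38.p6). In the 250 bases upstream of the start, the ISRE core GAAANNGAAA, searched on both strands and with overlaps allowed, was present for 14 of these 27 genes, against 3.46% of all 27025 genes in the table. It was present for 9 of 20 inducible type I members and 4 of 5 GBP-type members. The GAS core TTCNNNGAA was found for 6 of 27 members, against 8.13% of all genes. Gbp5 and Gbp7 each held an ISRE core and 2 GAS cores. The stretches below cover the 170 bases before the start of 6 members whose behaviour differed in these cells: Isg15 (chr4:156200819-156200988, minus strand), Ifit3 (chr19:34583359-34583528, plus strand) and Rsad2 (chr12:26456453-26456622, minus strand), which a few cells carried; Slfn5 (chr11:82951932-82952101, plus strand) and Trim30a (chr7:104465194-104465363, minus strand), which were at the same level in classical monocyte-gated cells of both libraries; and the GBP-type Gbp2 (chr3:142620493-142620662, plus strand). They read 5′ to 3′ on the gene's strand, all letters lie upstream of the transcript, and capitals mark each ISRE core match.
Isg15: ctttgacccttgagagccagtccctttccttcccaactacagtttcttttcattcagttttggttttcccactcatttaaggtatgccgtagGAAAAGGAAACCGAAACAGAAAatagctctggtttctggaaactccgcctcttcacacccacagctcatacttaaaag
Ifit3: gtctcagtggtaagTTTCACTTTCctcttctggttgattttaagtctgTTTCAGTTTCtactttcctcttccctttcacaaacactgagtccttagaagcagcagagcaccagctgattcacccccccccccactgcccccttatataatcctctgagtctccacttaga
Rsad2: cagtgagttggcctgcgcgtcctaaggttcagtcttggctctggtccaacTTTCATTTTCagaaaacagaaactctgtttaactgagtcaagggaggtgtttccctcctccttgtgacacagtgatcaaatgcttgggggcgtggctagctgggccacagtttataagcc
Slfn5: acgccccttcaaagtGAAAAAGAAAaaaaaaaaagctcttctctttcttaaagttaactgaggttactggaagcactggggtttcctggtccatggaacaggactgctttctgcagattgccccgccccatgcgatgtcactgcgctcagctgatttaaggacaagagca
Trim30a: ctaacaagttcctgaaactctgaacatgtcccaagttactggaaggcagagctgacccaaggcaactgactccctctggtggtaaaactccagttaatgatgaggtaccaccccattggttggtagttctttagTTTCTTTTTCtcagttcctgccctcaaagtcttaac
Gbp2: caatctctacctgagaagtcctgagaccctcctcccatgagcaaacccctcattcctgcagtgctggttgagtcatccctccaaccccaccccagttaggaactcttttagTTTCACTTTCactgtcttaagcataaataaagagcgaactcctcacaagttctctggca
Isg15 held 3 overlapping cores between 78 and 66 bases before the start, Ifit3 held 2, and each of the other 4 genes held 1. Among the genes that few cells carried, some had the core and others did not: Ifit2 and Irf7, described below, had no match in this window. Slfn5 and Trim30a, which were spread further, each held 1. Irf9, spread further still, had no match.

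After filtering, the steady-state library held 1631 cells with a median of 9559 UMIs (unique molecules), and the day 7 library held 1200 cells with a median of 8309. The libraries shared 0 cell barcodes. Cells were assigned to types by summed marker genes. Each gate is a range of a per-cell score, and 122 of 2831 cells lay within a factor of 0.8, or its inverse, of a gate's minimum. Macrophage-gated cells numbered 831 at steady state and 151 at day 7, classical monocyte-gated cells 195 and 625, Ly6C-low monocyte-gated cells 139 and 145, and class II-gated cells 290 and 56. Granulocyte or progenitor-gated cells numbered 7 and 155. The sort excluded Ly6C and MHCII, yet classical monocyte-gated cells had 1052 and 1623 CPM (counts per 1000000 UMIs) of Ly6c2 and a median of 47 and 53 Ly6C antibody counts, and class II-gated cells had 3124 and 1619 CPM of H2-Ab1. Over cells, the median sum of the macrophage markers was 1.10 and 0 UMIs per 10000 in the classical gate, against 203 and 150 in the macrophage gate. Over a whole library the lists for lymphocytes (T, B and NK) and for plasmacytoid dendritic cells were near 0, with at most 11.4 CPM for a list. Within gates some were higher. At day 7 B markers were at 36.3 CPM in class II-gated cells and NK markers at 40.8 CPM in Ly6C-low monocyte-gated cells. Mast and basophil markers were at 360 CPM in the latter and at 0 there at steady state.

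Transcripts of the interferons themselves were almost undetected. Of 9 ligand genes, 7 had 0 UMIs in both libraries. Ifnb1, which encodes interferon beta, had 6 UMIs in 2 class II-gated donor cells at steady state. These cells held 0 and 2 UMIs of the inducible members among 3824 and 12142 UMIs. At day 7 Ifnb1 had 4 UMIs in 1 classical monocyte-gated donor cell, which held 77 inducible UMIs among its 39277. The raw inducible counts thus come from cells of different depth. Drawn down to 2000 UMIs per cell, the steady-state cells held 0 and 1 inducible UMIs and the day 7 cell 4. All were under the 6 UMIs that define a module-high cell below. Ifng, which encodes interferon gamma, had 1 UMI, at day 7. The receptors were present in every main gate. Ifnar1 was at 65.9 CPM at steady state and 79.7 CPM at day 7 in classical monocyte-gated cells and at 68.2 and 75.4 CPM in macrophage-gated cells. Ifngr1 was at 526 and 483 CPM in classical monocyte-gated cells and at 227 and 209 CPM in macrophage-gated cells. The type I receptor gene was therefore at a like level in both gates, while Ifngr1 was lower in macrophage-gated cells.

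The module's total was 3350 CPM at steady state and 4676 CPM at day 7 over all cells, and 77.0% and 77.2% of its UMIs came from the 3 high basal members. Ifitm3, a membrane protein that blocks viral entry, alone supplied 47.1% and 55.2%. A sum over the module is therefore mainly a reading of Ifitm3 and Ifi27l2a, and the 27 inducible members are described apart. Their sum was highest in classical monocyte-gated cells, at 1874 CPM at steady state and 1375 CPM at day 7. It was 1084 and 993 CPM in Ly6C-low monocyte-gated cells, 651 and 1115 CPM in class II-gated cells and 464 and 414 CPM in macrophage-gated cells. Granulocyte or progenitor-gated cells at day 7 had 160 CPM. Over all cells the inducible sum was 682 and 985 CPM, higher at day 7, although it was lower at day 7 within the classical, Ly6C-low and macrophage gates; classical monocyte-gated cells were 12.0% of cells at steady state and 52.1% at day 7.

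**Figure D1:**
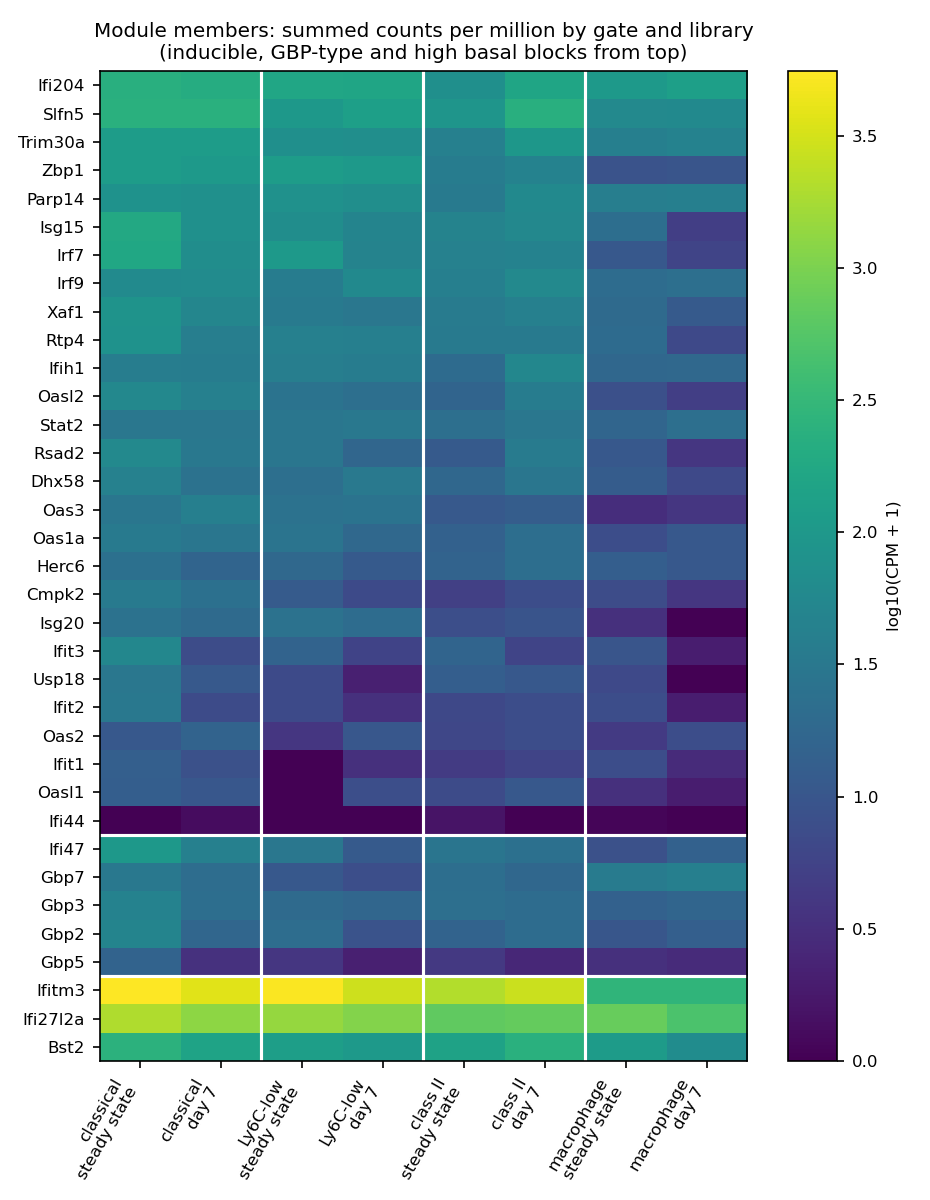
Summed CPM (colour, log10(CPM + 1)) of the 35 members (rows) in 4 gates, each at steady state and day 7 (columns); inducible, GBP-type and high basal members are separated by white lines. Ifitm3 and Ifi27l2a are brightest in the monocyte gates, and most inducible and GBP-type members are highest in classical monocyte-gated cells at steady state.

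Within the high basal group, levels by cell type differed between members. Ifitm3 was at 5531 and 3746 CPM (steady state, then day 7) in classical monocyte-gated cells and at 5207 and 2837 CPM in Ly6C-low monocyte-gated cells. In macrophage-gated cells it was at 281 and 278 CPM. Macrophages were far below both monocyte gates in either library. Ifi27l2a, an interferon-inducible gene of the Ifi27 family, was at 1981 and 1283 CPM in classical monocyte-gated cells and at 747 and 483 CPM in macrophage-gated cells. Bst2, which encodes tetherin, the protein that holds budding virions at the cell surface, was at 252 and 149 CPM in classical monocyte-gated cells and at 113 and 64.8 CPM in macrophage-gated cells. In class II-gated cells Bst2 was at 144 and 233 CPM, and at day 7 this was its highest level of the 4 gates.

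Among the inducible members, a group was present at moderate levels in every main gate. Ifi204, a DNA-binding member of the Ifi200 family, was at 230 and 204 CPM in classical monocyte-gated cells and at 106 and 127 CPM in macrophage-gated cells. Slfn5, a Schlafen family gene, was at 240 CPM in classical monocyte-gated cells in both libraries and at 57.7 and 58.0 CPM in macrophage-gated cells. Trim30a, a TRIM family regulator, was at 117 and 116 CPM in the classical gate and at 40.1 and 44.5 CPM in the macrophage gate. The counting intervals of the ratio between libraries held 0 for Slfn5 and Trim30a in both gates. Parp14 was at 38.8 and 39.6 CPM in macrophage-gated cells, again nearly equal.

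Zbp1, a sensor of Z-form nucleic acid that can start necroptosis, was highest in the monocyte gates. It was at 117 and 101 CPM in classical monocyte-gated cells and 118 and 102.5 CPM in Ly6C-low monocyte-gated cells. In class II-gated cells it was at 36.4 and 44.6 CPM and in macrophage-gated cells at 8.13 and 8.70 CPM. Irf7, the transcription factor that amplifies type I interferon, was at 171 and 67.8 CPM in classical monocyte-gated cells, 101 and 46.6 CPM in Ly6C-low monocyte-gated cells and 9.69 and 4.84 CPM in macrophage-gated cells. Irf9, the DNA-binding subunit of the ISRE-binding complex, was less type-bound, at 61.0 and 62.4 CPM in the classical gate and 20.2 and 22.2 CPM in the macrophage gate.

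Of the classic antiviral effectors, Isg15 (a ubiquitin-like modifier) was at 180 and 75.3 CPM in classical monocyte-gated cells and at 66.7 and 47.7 CPM in Ly6C-low monocyte-gated cells. In macrophage-gated cells it was at 21.2 CPM at steady state and 3.87 CPM (4 UMIs) at day 7. Granulocyte or progenitor-gated cells of day 7 had 4.004 CPM of Isg15; 3.87% of them held it, with a median of 12513 UMIs per cell. Day 7 macrophages, of which 2.65% held it with a median of 6705 UMIs per cell, are read as background. Ifit3, which with Ifit1 and Ifit2 binds foreign RNA, was at 52.3 and 6.30 CPM in classical monocyte-gated cells. Ifi44 was near absent, at no more than 0.587 CPM in any of the 4 main gates. Ifit3 has a near-identical neighbour, Ifit3b, and the Gbp, Oas1 and Ifi200 genes lie in families of close copies, so their split between copies is uncertain.

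To ask whether the inducible members were spread evenly or carried by few cells, each cell was thinned to 2000 UMIs, leaving 1498 and 1018 cells (133 and 182 were shallower). The 10% of cells with the most inducible UMIs held 52.5% of them at steady state and 43.6% at day 7. The same measure over 8 housekeeping genes was 16.0% and 14.8%, but these genes are far more abundant, and sparse counts alone raise such a share. Housekeeping UMIs were therefore thinned further, to the mean of the inducible sum in the same cells, a comparison added after the values were seen. At that abundance the top 10% of cells held 27.3% and 24.3% of housekeeping UMIs. Cells with none made up 44.1% and 32.9% for inducible members, against 23.0% and 13.9% for the housekeeping sum so thinned. Inducible UMIs were less evenly spread than housekeeping UMIs of the same number in either library.

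Unevenness was present inside the classical gate too. The top 10% of classical monocyte-gated cells held 45.7% and 37.1% of inducible UMIs, against 20.2% and 21.8% of housekeeping UMIs at the same abundance. The variance over the mean was 10.1 at steady state and 4.33 at day 7 for inducible members, against 1.17 and 1.09 for the housekeeping sum at the same abundance and 3.099 and 2.21 without the further thinning. High basal members had a ratio of 4.91 and 3.44 and 21.3% and 20.7% of UMIs in the top 10% of cells. They are more abundant and were not matched in number, so these values are not set against those of the inducible members. Macrophage-gated cells of day 7 had a variance over mean of 1.13 for inducible members, with a highest cell of 4 UMIs, while those of steady state had 3.81 and a highest cell of 25 UMIs. The housekeeping sum at the same abundance had 0.889 and 1.07 in these gates.

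Cells with at least 6 inducible UMIs of 2000 (median plus 3 scaled median absolute deviations, over both libraries) were called module-high. They were 85 of 1498 cells (5.67%, exact interval 4.56 to 6.97) at steady state and 99 of 1018 cells (9.72%, 7.97 to 11.7) at day 7. The call is a point on a range: 71 cells lay 1 UMI below it and 39 at it. Module-high cells held 39.96% and 42.9% of all inducible UMIs, and in each library they carried a median of 8 inducible UMIs from 6 different members. The most extreme cells held 48 and 38 UMIs, and 11 and 4 cells held at least 20.

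Classical monocyte-gated cells supplied 37 of the 85 and 82 of the 99. In that gate 37 of 186 cells (19.9%, 14.4 to 26.4) were module-high at steady state and 82 of 548 (14.96%, 12.1 to 18.2) at day 7, with overlapping intervals. The corresponding shares were 5 of 115 and 7 of 123 in Ly6C-low monocyte-gated cells and 21 of 272 and 7 of 55 in class II-gated cells. Among macrophage-gated cells 16 of 779 (2.05%, 1.18 to 3.31) were module-high at steady state and 0 of 127 at day 7, which allows a share of up to 2.36% when the limit for a count of 0 is set at 3 counts (exact upper bound 2.86%). The difference between the macrophage shares was thus not detectable at this number of cells. None of 115 granulocyte or progenitor-gated cells of day 7 was module-high, which allows up to 2.61% by the same rule (exact upper bound 3.16%). Before thinning, module-high cells over all types were not deeper than the rest: their median depth was 8842 UMIs against 10146 at steady state and 8802 against 9233 at day 7. This did not hold in every gate. In the Ly6C-low gate it was 8132 against 7058.5 at steady state and 6776 against 6631.5 at day 7. Within the classical gate it was 9805 against 8840 at steady state and 9267.5 against 9654.5 at day 7.

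**Figure D2:**
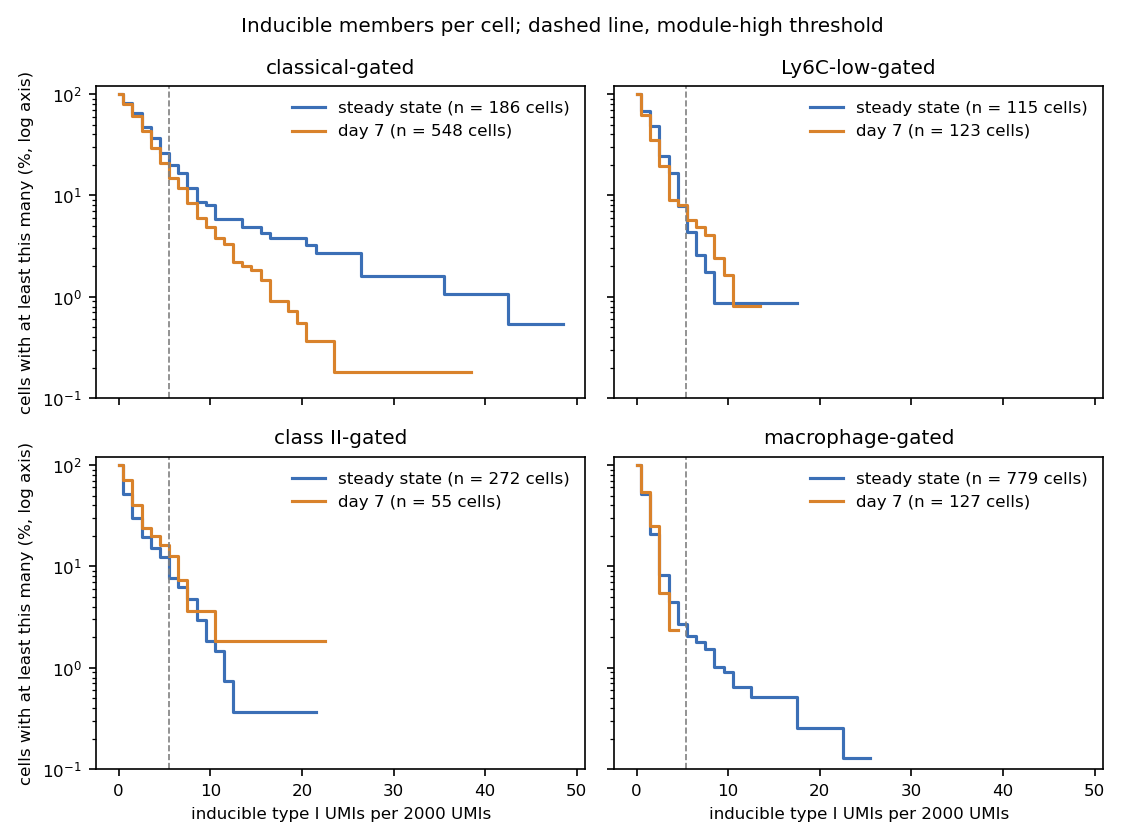
Percent of cells (log axis) with at least a given number of inducible type I UMIs after thinning to 2000 UMIs, by gate and library; the dashed line marks the module-high threshold. Classical monocyte-gated cells have the longest tails, up to 48 UMIs at steady state and 38 at day 7, and macrophage-gated cells of day 7 stop at 4.

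Splitting the inducible list by alphabetical place gave a reading of members that had not made the call. When 14 members called the high cells, the other 13 averaged 17.0 UMIs in 8 high classical monocyte-gated cells and 2.25 in 178 others at steady state. At day 7 they averaged 9.77 in 13 high cells and 1.92 in 535 others. In the reverse split, high cells had 5.59 and 3.09 times the mean of other cells. Macrophage-gated cells of steady state showed the same with 8 high cells (8.5 against 0.589 UMIs). Members left out of a call were thus higher in the called cells in both splits.

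Members differed widely in how far module-high cells carried them. In the classical gate at steady state, module-high cells held 93.8% of Ifit3 UMIs, 94.6% of Ifit2 UMIs, 88.2% of Rsad2 UMIs (viperin, which makes a chain-terminating nucleotide) and 75.2% of Isg15 UMIs. At day 7 these shares were 83.8% for Ifit3, 69.7% for Ifit2, 72.2% for Rsad2 and 55.7% for Isg15. Most UMIs of these 4 effectors thus lay in the high cells in both libraries. Slfn5 was spread further, with 48.7% and 40.8% in high cells, and Trim30a with 42.5% and 30.9%. Irf9 stood at the other end: module-high cells held 22.5% and 15.3% of its UMIs, close to their share of cells. Because the inducible members made the call, these shares are a description.

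**Figure D3:**
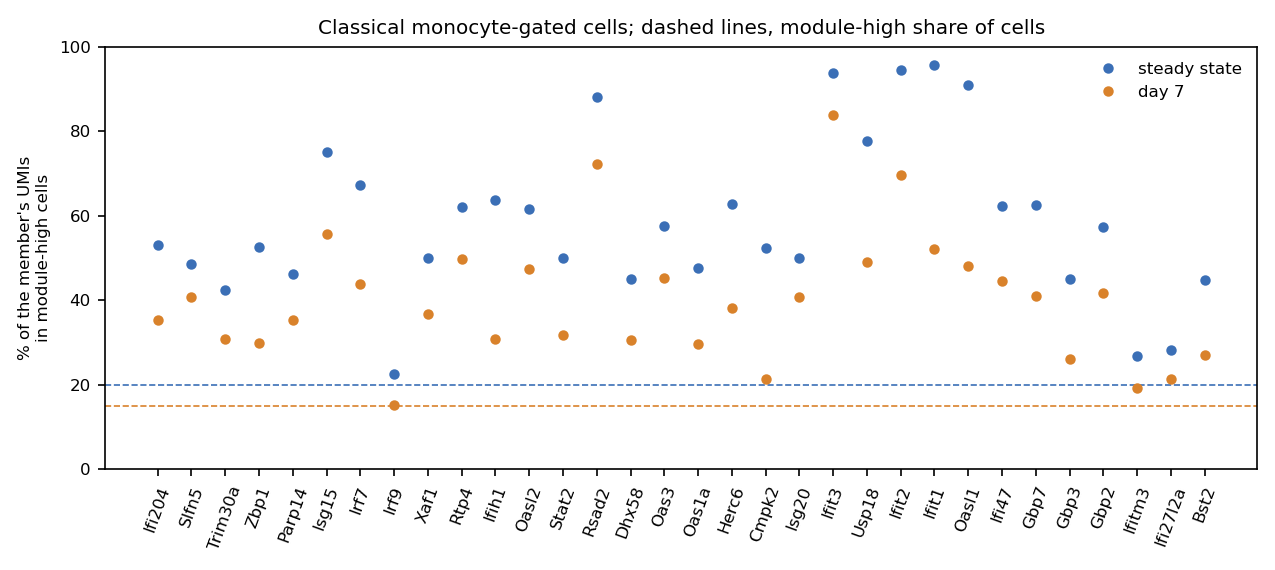
Percent of each member's UMIs found in module-high cells of the classical monocyte gate at steady state (blue) and day 7 (orange), for members with at least 20 UMIs in each library; dashed lines mark the module-high share of cells, 19.9% and 14.96%. At steady state Ifit1, Ifit2, Ifit3, Oasl1 and Rsad2 lie highest, and Irf9, Ifitm3 and Ifi27l2a lie near the lines.

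The GBP-type and high basal members took no part in the call, so their values in module-high cells are a separate reading. Of all genes, 2.52% at steady state and 1.17% at day 7 were at least 2-fold higher in module-high than in other classical monocyte-gated cells, and 5.88% and 3.63% were at least 2-fold lower. Genes entered with at least 20 CPM over high and other cells pooled, so that none entered through 1 group alone. Of the 4 GBP-type members that entered at steady state 4 were at least 2-fold higher, and of the 3 at day 7, 3 were. Gbp2 was at 139 CPM in high cells and 26.0 CPM in others at steady state (log2 ratio 2.41, interval 1.78 to 3.06) and at 53.7 and 11.1 CPM at day 7, under the minimum when pooled (2.27, 1.65 to 2.88). Ifi47, an immunity-related GTPase, had log2 ratios of 2.72 (2.28 to 3.18) and 2.45 (2.06 to 2.82). Gbp5, a GBP linked to the inflammasome, was at 54.4 CPM in high cells and 4.79 CPM in others at steady state, also under the pooled minimum. The GBP-type members with enough counts were higher in the cells called on type I members.

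Counted per cell, 9 of the 13 classical monocyte-gated cells with at least 2 GBP-type UMIs at steady state were module-high, and 10 of 15 were at day 7. A GBP-type UMI was present in 51.4% of module-high and 17.4% of other classical cells at steady state, and in 34.1% and 15.02% at day 7. Many module-high cells thus showed none at this depth, and some cells with GBP-type UMIs were not module-high. In macrophage-gated cells of steady state, 6 of 19 cells with at least 2 GBP-type UMIs were module-high. Gbp7 was also the only GBP-type member above 20 CPM in macrophage-gated cells, at 35.4 and 39.6 CPM.

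The high basal members behaved differently from each other in module-high classical monocyte-gated cells. Bst2 had log2 ratios of 1.70 (1.42 to 1.97) at steady state and 1.34 (1.11 to 1.56) at day 7. Ifitm3 had 0.54 and 0.69, and Ifi27l2a 0.65 and 0.88, both under 2-fold. For the tetherin protein, CD317 antibody was at a median of 43.0 per 10000 antibody counts in high and 23.0 in other classical cells at steady state, and 63.9 and 53.1 at day 7. CD317 was looked at because Bst2 encodes it, after the values were seen, and its median counts per cell were between 2 and 4.

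Pathway genes outside the module, from fixed lists, were set against the same background shares. Of 14 type II targets 3 entered at steady state and 3 were at least 2-fold higher in module-high classical monocyte-gated cells; 2 entered at day 7 and 2 were. The other type II targets lay under the minimum. Irgm1 and Igtp are GTPases that act on pathogen vacuoles; Irgm1 had log2 ratios of 1.99 and 1.92, and Igtp had 1.92 at steady state and lay under the minimum at day 7. Of the other interferon-stimulated genes, 14 of 17 passed at steady state and 10 of 16 at day 7. Of the receptors 0 of 4 passed in either library, and Ifnar1 had log2 ratios of 0.45 and 0.05 with intervals that include 0. Of the signalling genes 2 of 11 passed at steady state and 3 of 11 at day 7, among them Ddx58, which encodes the RNA sensor RIG-I (log2 ratio 2.29 and 2.05). Receptor RNA differed by less than 2-fold.

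Cxcl10, the chemokine that draws T cells through CXCR3, was concentrated further at steady state. In the classical gate the 37 module-high cells held 386 of its UMIs and the 149 others held 22, a log2 ratio of 6.12 (5.504 to 6.81). At day 7 the 82 high cells held 119 and the 466 others 118, a log2 ratio of 2.77 (2.39 to 3.15). Ccl2, a monocyte chemokine, had log2 ratios of 0.62 and -0.33, opposite in sign between the libraries.

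Origin was read from the CD45.1 and CD45.2 antibodies. Of module-high cells with an assigned origin, 13 of 83 (15.7%, 8.61 to 25.3) were host-class at steady state, against 718 of 1334 other cells (53.8%, 51.1 to 56.5). At day 7, 0 of 96 were host-class, which allows up to 3.13% by the rule of 3 counts (exact upper bound 3.77%), against 120 of 865 other cells (13.9%, 11.6 to 16.4). Module-high cells were thus mostly of donor marrow, but so were the classical monocyte-gated cells that supplied them.

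Within gates the contrast was smaller. In the classical gate 0 of 37 module-high cells and 7 of 148 others (4.73%) were host-class at steady state, and 0 of 80 and 18 of 457 (3.94%) at day 7, with overlapping intervals in each library. In the macrophage gate 12 of 15 module-high cells (80.0%, 51.9 to 95.7) and 659 of 723 others (91.1%, 88.8 to 93.1) were host-class at steady state, again overlapping. Of the 13 host-class module-high cells, 12 were macrophage-gated and 1 was class II-gated. The intervals did not separate module-high from other cells within either gate. By the larger of the antibody counts instead of the mixture, the day 7 share was 3.06%.

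**Figure D4:**
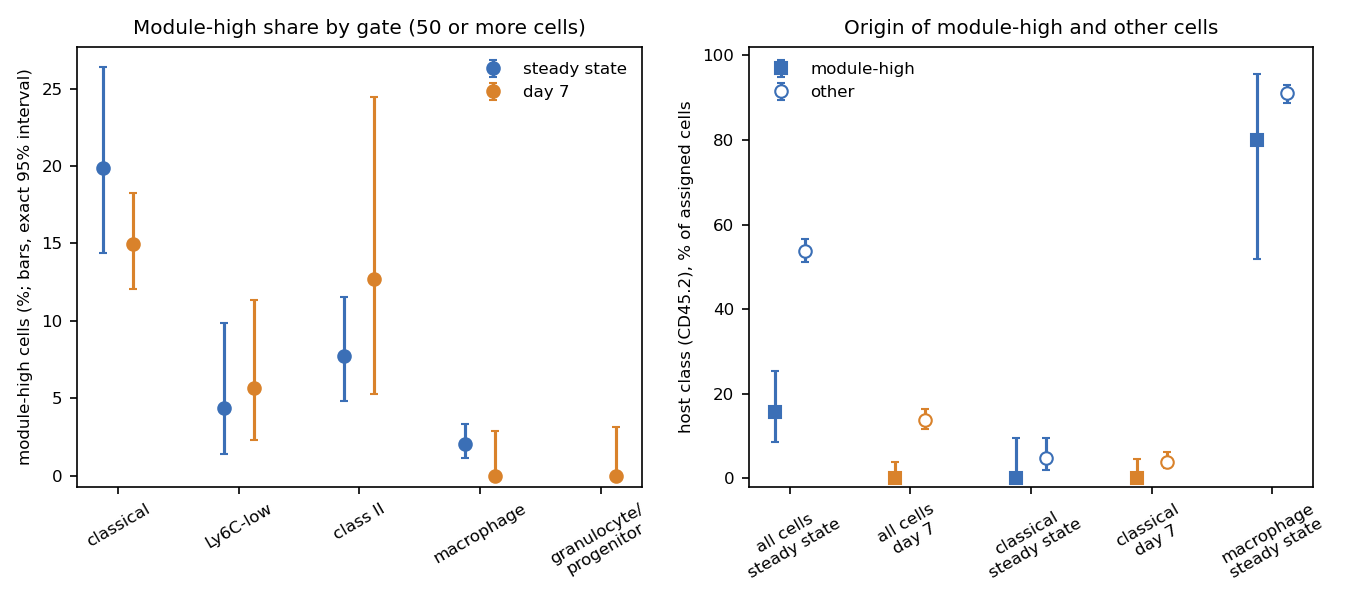
Left, percent of cells that are module-high by gate and library; right, percent of assigned cells that are host-class (CD45.2) among module-high cells (filled squares) and other cells (open circles); bars are exact 95% intervals. Module-high cells differ in origin from other cells over all types (15.7% against 53.8% host-class at steady state), and the intervals overlap within the classical and macrophage gates.

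Host and donor macrophages of steady state were compared next. Of genes with at least 20 CPM over both classes pooled, 1% were at least 2-fold lower and 3.78% at least 2-fold higher in 693 host-class than in 75 donor-class macrophage-gated cells. Of 10 members that entered, 2 were lower (Ifitm3 and Isg15) and 1 higher (Ifi27l2a), with a median log2 ratio of -0.50 against 0.03 for all genes. Ifitm3 was at 241 CPM in host-class and 612 CPM in donor-class cells (log2 ratio -1.34, -1.49 to -1.20). Ifi27l2a went the other way, at 767 and 270 CPM (1.51, 1.31 to 1.72). Ifi204 and Slfn5 were level, at -0.00 and -0.12.

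Few donor cells held much of several members' UMIs. All 31 donor Ifit2 UMIs lay in 4 cells and all 27 Rsad2 UMIs in 5 cells, with 22 of them in 1 cell. For Irf7, 5 cells held 24 of 25 UMIs, and for Isg15, 24 of 31. For Ifitm3, 58 of 75 donor cells had a UMI, yet 5 cells held 248 of 472. Ifi27l2a was found in 565 of 693 host cells. Of the 693 host cells, 5 held 65 of 150 Isg15 UMIs and 173 of 1856 Ifitm3 UMIs. These 5 are a smaller share of the host cells than 5 are of the 75 donor cells. Much of the donor level of Isg15 and Ifitm3 thus lay in few cells, and so did part of the host Isg15 level.

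Against steady state, the module was lower at day 7 in classical monocyte-gated cells. There 1.67% of all genes were at least 2-fold lower and 2.13% at least 2-fold higher; of 30 members with at least 20 CPM in either library, 9 were lower and 0 higher. The median log2 ratio was -0.59 for members and 0.12 for all genes. The 9 were Ifit3, Ifit2, Gbp2, Usp18, Irf7, Ifi47, Isg15, Gbp3 and Rtp4. Of the GBP-type members with enough counts 3 of 4 were among them, as were 6 of 23 inducible members and 0 of 3 high basal members. Pooled over both libraries, Ifit3, Ifit2 and Usp18 were under the minimum, at 17.3, 11.9 and 14.7 CPM. Gbp2 was at 24.0 CPM pooled but at 16.4 CPM at day 7. These members entered through their steady-state level alone, which favours a lower ratio. The share of all genes was counted with the same filter.

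Values for single members show the pattern. Ifit3 was at 52.3 CPM at steady state and 6.30 CPM at day 7 (log2 ratio -3.05, -3.64 to -2.49). Gbp2 was at 48.4 and 16.4 CPM (-1.57, -1.998 to -1.13), and Usp18, the protease that removes Isg15 and damps the receptor, at 29.4 and 10.1 CPM (-1.55, -2.11 to -0.99). Irf7 was at 171 and 67.8 CPM (-1.34, -1.56 to -1.12) and Isg15 at 180 and 75.3 CPM (-1.26, -1.47 to -1.05). Slfn5, Trim30a, Stat2, Irf9 and Ifih1, the RNA sensor MDA5, lay between -0.04 and 0.03, and Oas3 was at 0.49 (0.06 to 0.96). For these members no lower level was seen.

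Much of the steady-state level of Ifit3 and Ifit2 lay in few cells. Of 96 steady-state Ifit3 UMIs, 70 were in 5 of 195 cells, and of 56 Ifit2 UMIs, 47 were. At day 7 the 5 highest cells held 13 of 37 Ifit3 UMIs and 18 of 36 Ifit2 UMIs. Leaving out, in each library, the 5 cells with the most inducible UMIs left 24 members above the minimum, of which 4 (Gbp2, Ifi47, Irf7 and Isg15) were at least 2-fold lower, with a median log2 ratio of -0.15. Ifit3 (-1.61) and Usp18 (-1.19) were also beyond 2-fold there but lay under the 20 CPM minimum. Without those cells Rsad2 was at -0.11 instead of -0.86, and Gbp2 at -1.26. Ifih1 was at 0.37 and Slfn5 at 0.22 there. Ifit2 was at -0.98. The share of all genes past 2-fold was not counted without those cells. The 5 cells were taken from 195 at steady state and from 625 at day 7, so the libraries were not trimmed alike and these ratios shift partly for that reason.

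**Figure D5:**
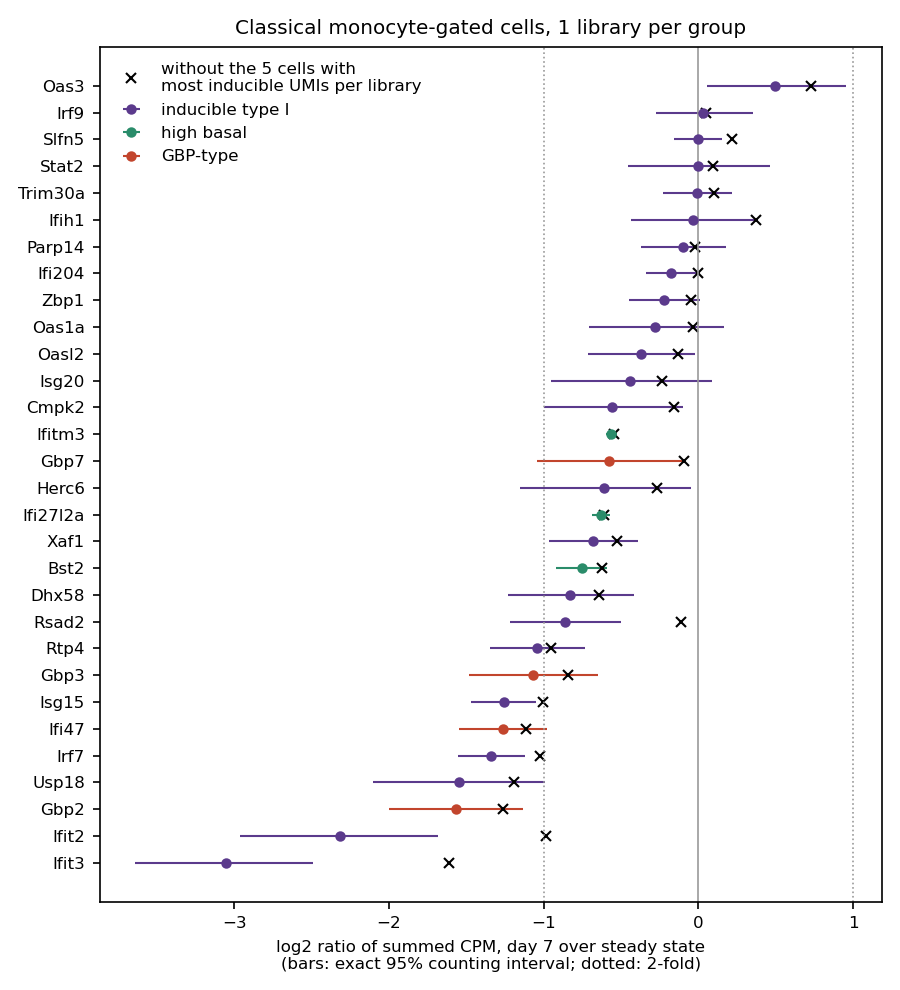
Log2 ratio of summed CPM, day 7 over steady state, for the 30 members with enough counts in classical monocyte-gated cells; bars are exact 95% counting intervals, dotted lines mark 2-fold, and crosses give the ratio without the 5 cells per library that hold the most inducible UMIs. In all, 9 members lie at or beyond 2-fold lower, from Ifit3 (-3.05) to Rtp4 (-1.04), and several crosses lie closer to 0.

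The classical gate itself differed between the libraries in markers of other types. Summed macrophage markers were at 469 CPM (10 of 10 detected) at steady state and 48.9 CPM (9 of 10, Timd4 at 0) at day 7. Granulocyte and progenitor markers were at 194 CPM (9 of 12) and 902 CPM (12 of 12), and the classical markers themselves at 3583 and 4760 CPM. Their part in the members' difference was not tested. With gate minimums doubled, 4 members were lower (Gbp5, Ifit3, Irf7 and Usp18). In clusters built without module genes 5 were (Ifi47, Ifit2, Ifit3, Irf7 and Usp18). For these settings the share of all genes past 2-fold was not counted.

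Other pathway genes of classical monocyte-gated cells are given from the same lists. Of 3 chemokines with enough counts 2 were lower at day 7, Cxcl10 (222 against 40.5 CPM, log2 ratio -2.45) and Ccl7 (-1.89). Of 4 restraint genes, Socs3, a feedback inhibitor of cytokine receptors, was lower (-2.67). Among 18 other interferon-stimulated genes 3 were lower (Ifi213, Phf11b and Ms4a6b) and 1 higher (Adar, 1.18). None of 4 receptors, 11 signalling genes or 3 type II targets passed 2-fold, although Igtp and Fcgr1 came close at -0.93 and -0.96.

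In Ly6C-low monocyte-gated cells 3 of 23 members were at least 2-fold lower at day 7 and 0 higher, against 3.71% and 4.74% of all genes. They were Ifi47, at 29.4 and 10.5 CPM (log2 ratio -1.49, -2.75 to -0.38), Gbp2 (-1.34) and Irf7 (-1.12), which also passed in the classical gate. Ifi47 and Gbp2 entered through their steady-state level alone, which favours a lower ratio. Over both libraries pooled they were at 20.8 and 14.9 CPM. Ifitm3 was at -0.88 (-0.95 to -0.81) there. This count moved with the definition of the cells, to 5 with gate minimums doubled and 10 in the clusters built without module genes, and it was 1 (Gbp2) without the 5 cells with the most inducible UMIs. The share of all genes past 2-fold was not counted in those settings. Mast and basophil markers rose in this gate from 0 CPM at steady state to 360 CPM at day 7. Their part in the members' difference was not tested.

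In macrophage-gated cells 11 members had enough counts and 1 was at least 2-fold lower and 0 higher, against 1.05% and 1.24% of all genes. It was Isg15, at 21.2 CPM at steady state and 3.87 CPM at day 7 (log2 ratio -2.45, -4.34 to -1.07). The day 7 level of 4 UMIs is read as background, so the size of this ratio is not read as a change. At steady state 1 host cell held 43 of the 190 UMIs. Isg15 entered through its steady-state level alone and was at 19.4 CPM over both libraries pooled. Without the 5 cells with the most inducible UMIs its log2 ratio was -2.13 but it lay under the 20 CPM minimum, so 0 members were counted. Bst2 (-0.81) and Ifi27l2a (-0.63) were lower with intervals below 0. Ifitm3 (-0.02), Slfn5 (0.01), Parp14 (0.03) and Gbp7 (0.16) had intervals that held 0. Without the 5 cells Ifitm3 was at -0.49. The 5 cells were taken from 831 at steady state and from 151 at day 7, a larger share at day 7.

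In class II-gated cells the direction was opposite with all cells kept. There 0 of 23 members were at least 2-fold lower and 6 were higher, against 3.76% and 5.89% of all genes. The median log2 ratio was 0.46 for members and 0.12 for all genes. The 6 were Rsad2 (10.6 and 34.7 CPM, log2 ratio 1.71), Ifih1 (1.47), Slfn5 (1.39), Oasl2 (1.28), Trim30a (1.21) and Ifi204 (1.17). Rsad2, Oasl2 and Ifih1 entered through their day 7 level alone, which favours a higher ratio. Over both libraries pooled they were at 14.2, 18.2 and 24.2 CPM. None of the 3 GBP-type members with enough counts was higher, with a median of -0.24. Without the 5 cells per library with the most inducible UMIs, Rsad2 (1.39), Slfn5 (1.02) and Trim30a (1.01) stayed 2-fold higher and Ifih1 (0.84), Ifi204 (0.86) and Oasl2 (0.44) did not. In that setting 2 members were lower, Isg15 (-1.58) and Ifi47 (-1.07), and the median was 0.17 instead of 0.46. The lean of members towards day 7 was thus weaker in that setting. The share of all genes past 2-fold was not counted there. The 5 cells were taken from 290 at steady state and from 56 at day 7, a larger share at day 7. The day 7 gate held 56 cells, and its markers moved too: class II markers were at 30216 and 15122 CPM, Ly6c2 at 109 and 261 CPM, and the median Ly6C antibody count at 3 and 16.5. Their part in the members' difference was not tested.

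Surface antibodies were set against the call in the same way. In the classical gate the ratio of median normalised counts lay between 0.878 and 1.42 for every antibody with enough counts. In 16 module-high against 763 other macrophages of steady state, CD163 was at 2097 against 1031 per 10000 antibody counts, CD71 at 67.7 against 19.3 and MHC class II (I-A-I-E) at 35.7 against 12.6. CD43 was at 65.4 against 282, CD86 at 191 against 417 and CD88 at 157 against 334. The quartile ranges of the 16 and the 763 cells overlapped for each of these antibodies: CD163 ran from 952 to 3813 in high and from 64.9 to 3007 in other cells, and CD86 from 130 to 353 and from 230 to 699. The median sum of classical monocyte markers was 21.1 UMIs per 10000 in these 16 cells and 11.6 in the others, and that of class II markers 5.45 and 1.47. The part of those markers in the difference was not tested.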

How the data were processed

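The deposited files held whole-number UMI counts per gene and per antibody for each cell barcode, as made by the authors; the submitters' processing notes name Cell Ranger 6.1.2, Seurat 4.4.0 and mm10 and give none a role. Libraries were 10x Genomics 3′ v3.1, per the labels' protocols, so UMIs were counted at the transcript end and levels were not divided by gene length. From the counts, cells were kept from 500 UMIs and 200 genes upwards with a mitochondrial share of up to 10%. Doublets called by Scrublet (through scanpy 1.11.5; 6 of 1637 and 10 of 1210 cells) were removed, leaving 17073042 and 10826373 UMIs. Each cell went to the marker list with the largest sum relative to a minimum (40 UMIs per 10000 for macrophages, 15 for classical and 20 for Ly6C-low monocytes, 60 for class II and for granulocytes or progenitors, 40 for fibroblasts), or to none. The minimums were set by eye from histograms of the marker sums. The 37 members and all lists were chosen with earlier results of these data known.

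CPM are UMIs summed over the cells of a gate per 1000000. Between libraries, log2 ratios used genes that reached 20 CPM in 1 of the groups or both; within a library they used genes with 20 CPM over both groups pooled, a filter chosen after seeing the data. A group at 0 was set to 3 counts. Intervals (95%) were exact Clopper-Pearson for shares and conditional exact Poisson for ratios (scipy 1.17.1); a share of 0 allows up to 3 counts of the total; UMIs of a cell are not independent, so they cover counting error only. Checked on independent Poisson counts simulated for 5504 genes of the classical comparison, the ratio intervals held the true value for 95.7%. Clustering of UMIs in few cells was not simulated, so this does not cover it. Thinning drew 2000 UMIs per cell without replacement. Host-class and donor-class cells had a posterior of at least 0.95 in a mixture of 2 Gaussians (scikit-learn 1.9.0) fitted to log2 of CD45.2 counts plus 1 over CD45.1 counts plus 1 (means 4.03 and -2.83); other cells stayed unassigned. No test between libraries was possible. Every member at or above 20 CPM was eligible to be named; the antibodies were the 5 highest and 5 lowest ratios with a median of at least 5 counts. Promoters and coordinates are RefSeq's, build GRCm38.p6. Alternatives covered doublets, the mitochondrial limit, thinning depth, the high threshold, gate minimums, clusters, the CPM minimum, scaling and the origin rule.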

Additional observations from a re-analysis of the deposited data

Results flagged for a closer look

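In 5 members the ratio of day 7 to steady state went opposite ways in class II-gated and classical monocyte-gated cells, each with a counting interval on its own side of 0. The difference between the gates was not tested, since each gate has 1 library per group. Rsad2 had a log2 ratio of 1.71 in class II-gated and -0.86 in classical monocyte-gated cells, and Oasl2 had 1.28 and -0.37. For Ifi204 the values were 1.17 and -0.17, for Bst2 0.69 and -0.75, and for Ifitm3 0.44 and -0.56. In class II-gated cells Rsad2 and Oasl2 entered through their day 7 level alone, at 14.2 and 18.2 CPM over both libraries pooled. Over the alternatives the class II ratios stayed above 0 in all 5 members, and the classical ratios stayed below 0 for Rsad2, Bst2 and Ifitm3; that of Ifi204 reached 0.05 and that of Oasl2 0.09. Without the 5 cells per library with the most inducible UMIs the class II ratio of Oasl2 was 0.44. These were 5 of 290 cells at steady state and 5 of 56 at day 7. A search for samples far from their group could not be made with 1 library per group.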

How the results depend on the processing

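No paired analysis was possible because each group has 1 library. Over the alternatives, main results stayed within the limits used for an unchanged value 41 times and moved 19 times. Thinning to 1000 UMIs gave module-high shares of 2.75% and 4.09% (steady state, day 7), and a threshold at 5 scaled deviations gave 2.34% and 3.83%. Calling on all members gave 7.61% at steady state. In each of these the day 7 share over all cells was the higher, as in the main values. Shares by gate were not redone. In the main values those of the classical and macrophage gates were lower at day 7. Those of the Ly6C-low and class II gates were higher, and the intervals overlapped in each gate. The top 10% of cells held 54.6% of inducible UMIs at steady state after thinning to 1000, and 50.3% and 41.5% after thinning to 4000. Counts of members at least 2-fold lower at day 7 depended on the cells chosen. The share of all genes past 2-fold was not counted in these alternatives. Changed counts are therefore not read as results about the members. In the classical gate 9 became 4 with gate minimums doubled, 5 in Leiden clusters and 4 without the 5 cells with most inducible UMIs, an alternative chosen after seeing the data. That alternative takes a larger share of cells from the library with fewer cells in a gate. In the Ly6C-low gate 3 became 5 with minimums doubled, 10 in clusters, 6 with a minimum of 5 CPM, 5 with equal weight per cell and 1 without the 5 cells. In the macrophage gate 1 became 8 with a minimum of 5 CPM, 2 with scaling outside ribosomal and mitochondrial genes and 0 without the 5 cells; the 8 include Ifit2 and Ifit3, each with 1 UMI at day 7. With equal weight per cell the macrophage member was Rtp4, not Isg15. Centring on the median gene, also chosen after seeing the data, left 9, 1 and 3. Within a library, a minimum of 20 CPM in either group, instead of over both pooled, was compared after seeing the data. It gave 10 of 22 members lower in host-class macrophages instead of 2 of 10. Of all genes 149 of 6331 were lower there, instead of 59 of 5901. In module-high classical cells it gave 7 and 5 type II targets higher instead of 3 and 2. Of all genes 256 of 5681 and 126 of 5897 were higher there, instead of 133 of 5271 and 65 of 5563. Genes that entered through 1 group alone make up the difference between the filters. Depth limits the rare cells: at 2000 UMIs the threshold of 6 is a few molecules, and 0 of 127 day 7 macrophages allows 2.36%.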

Other observations

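Module-high cells of other gates leaned towards classical monocyte markers. The median sum of these markers was 18.8 UMIs per 10000 in 21 module-high class II-gated cells of steady state and 8.60 in 251 others, and 26.6 in 7 and 11.5 in 48 at day 7. In Ly6C-low monocyte-gated cells it was 7.38 in 5 module-high and 1.65 in 110 other cells at steady state, and 12.9 in 7 and 6.38 in 116 at day 7. Within the classical gate it was 34.1 and 34.6 at steady state and 48.7 and 45.6 at day 7, so module-high classical cells had about the same marker level as the rest.

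In granulocyte or progenitor-gated cells of day 7, which had 160 CPM of the inducible sum, Cmpk2 was at 22.5 CPM against 2.90 in macrophage-gated cells of that library, and Ifit2 at 10.5 against 0.967 CPM. These 2 were chosen after their values were seen. Isg15, Ifit3 and Rsad2 were at 4.004, 0.5004 and 1.501 CPM there.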
